A study of Homo sapiens with 15 samples.

Results

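The miR-15 and miR-16 family was followed through small RNA sequencing of human cells in which the m6A demethylase FTO was knocked down, and of RNA precipitated with an antibody against m6A. The members were taken from a list of 9 mature miRNAs: hsa-miR-15a-5p, hsa-miR-15a-3p, hsa-miR-15b-5p, hsa-miR-15b-3p, hsa-miR-16-5p, hsa-miR-16-1-3p, hsa-miR-16-2-3p, hsa-miR-195-5p and hsa-miR-497-5p, called below without the prefix for human. All 9 were among the 2418 miRNAs counted in the knockdown libraries, and 8 were among the 2189 miRNAs of the precipitation libraries, where miR-15a-3p was not analysed.

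A miRNA hairpin yields a 5p and a 3p arm, and the arm that is kept in an Argonaute protein pairs with target mRNAs mainly through its seed, bases 2 to 8. The 5p arms of this family share a seed, are the usual guide arms and are known for repressing BCL2, an inhibitor of apoptosis, and cyclins that drive the cell cycle. The 3p arms are the usual passenger arms. The hairpins of miR-15a and miR-16-1 lie in a region of chromosome 13 that is often deleted in chronic lymphocytic leukaemia.

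The 15 libraries came from FTO1C1, FTO2D4 and FTO3C3, uninduced derivatives of HEK293, a human embryonic kidney cell line. The knockdown set held 3 libraries of cells given scrambled siRNA (scr) and 3 of cells given a mix of FTO siRNAs, both at 10 nM by lipofection and harvested after 48 h. The RNA immunoprecipitation set (RIP-seq) held 3 input, 3 m6A and 3 IgG libraries, and the labels of these libraries name no siRNA. The precipitates were made with an antibody against m6A or with an IgG isotype control. Each line is a single derivative, and the main tests include a term for the line. Their p-values rest on within-line differences over these 3 lines. The variance of a miRNA was not estimated from its own libraries alone, since the tests borrow information from all miRNAs tested. FTO mRNA is not part of miRNA counts, and the extent of its knockdown was not analysed here.

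Levels are reads per 1000000 miRNA reads (RPM). Totals ranged from 1991317 to 3876806 reads in the knockdown libraries and from 186446 (FTO3C3 IgG) to 4973238 (FTO3C3 m6A) in the RIP-seq libraries. One miRNA, miR-6080, took 58.0 to 71.6% of the reads in IgG, 41.3 to 47.8% in m6A and 15.5 to 28.4% in input libraries. Its count was the same number, 563404, in the IgG and m6A libraries of FTO2D4, while no other miRNA with at least 500 reads in either of them had identical counts. RIP-seq calls of members were therefore also made without FTO2D4 and with totals that leave out miR-6080. Both tables were scaled by their own totals, and tests were run only within a table.

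The mature sequences of the 5p arms, from RefSeq annotation of GRCh38.p14, are shown because their similarity bears on every count below; the capitals mark the seed.
miR-16-5p: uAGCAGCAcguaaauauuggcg
miR-195-5p: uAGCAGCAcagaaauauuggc
miR-15a-5p: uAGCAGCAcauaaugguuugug
miR-15b-5p: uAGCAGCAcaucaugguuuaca
miR-497-5p: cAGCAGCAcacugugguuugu
All 5 guide arms carried the seed AGCAGCA, and 2 further measured miRNAs, miR-424-5p and miR-6838-5p, carried it too. Positions are counted from 1 at the 5′ end. Relative to miR-16-5p, miR-195-5p had the substitutions G10A and U11G and was 1 base shorter. Relative to miR-15a-5p, miR-15b-5p had A12C, G20A, U21C and G22A, and miR-497-5p had U1C, U11C, A12U and A13G. The authors assigned reads by exact matches of at least 7 bases that together covered at least 17, and each of these pairs meets that criterion against each other, with 19, 18 and 17 matched bases. The passenger arms miR-16-2-3p and miR-195-3p meet it as well, with 18 matched bases. Among several names that met it, the authors chose the name sharing most bases with the read, so an intact read of either name is told apart. Whether reads with errors at the differing bases were counted under the other name was not tested.

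The 3p arms did not share a seed, again in capitals, and are shown because one of them held the core letters of the m6A motif the study searched for.
miR-15a-3p: cAGGCCAUauugugcugccuca
miR-15b-3p: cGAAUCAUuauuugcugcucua
miR-16-1-3p: cCAGUAUUaacugugcugcuga
miR-16-2-3p: cCAAUAUUacugugcugcuuua
The core letters AAC or GAC, searched on the RNA strand only, occurred in 1 of the 9 members, miR-16-1-3p, where they start at base 9. They occurred in 37.4% of the measured miRNAs, 796 of the 2127 that had a sequence. None of the 5 guide arms held these letters, which says only that they are not in these sequences.

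In GRCh38.p14 the 6 hairpins form 3 pairs. MIR15A (chr13:50049119-50049201) and MIR16-1 (chr13:50048973-50049061) lie 57 bases apart on the minus strand within the span of DLEU2. MIR15B (chr3:160404588-160404685) and MIR16-2 (chr3:160404745-160404825) lie 59 bases apart on the plus strand within the spans of SMC4 and TRIM59-IFT80. MIR195 (chr17:7017615-7017701) and MIR497 (chr17:7017911-7018022) lie 209 bases apart on the minus strand within MIR497HG. The arm miR-16-5p is identical from both of its hairpins, so its reads cannot be assigned to either, whereas miR-16-1-3p and miR-16-2-3p each mark one.

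miR-16-5p made up most of the family in every library of cells and input. The 9 members together took 1.36 to 1.99% of the reads in scr and 0.934 to 1.48% after FTO siRNA. Of those reads, miR-16-5p took 92.7 to 93.8% in scr, 89.6 to 92.5% after FTO siRNA and 75.9 to 89.7% in input. All members are 21 or 22 bases long, so RPM can be compared between them without a term for length.

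In scr the mean RPM was 15965 ± 3109 (SD, n = 3) for miR-16-5p, 642 ± 100.3 for miR-15a-5p and 247 ± 36.4 for miR-15b-5p. It was 110.5 ± 11.2 for miR-16-2-3p, 42.9 ± 3.22 for miR-195-5p and 37.4 ± 4.41 for miR-497-5p. The lowest means were 31.9 ± 8.33 for miR-15b-3p, 16.6 ± 2.64 for miR-16-1-3p and 4.41 ± 1.91 for miR-15a-3p. The libraries of neighbours in this order did not overlap except between miR-195-5p and miR-497-5p and between miR-497-5p and miR-15b-3p, which were not separated beyond their spread. At least 15 RPM, the level the study set for an expressed miRNA, in all 3 scr libraries was reached by 7 of the 9 members and by 1032 of all 2418 miRNAs. miR-16-1-3p and miR-15a-3p did not reach it.

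In input the first 3 places were the same, with 6311 ± 2501, 874 ± 159.8 and 158 ± 45.4 RPM (SD, n = 3) for miR-16-5p, miR-15a-5p and miR-15b-5p, and these did not overlap. Below them miR-16-2-3p, miR-497-5p, miR-195-5p, miR-15b-3p and miR-16-1-3p followed at means between 49.9 and 15.2 RPM, each overlapping the next. Among m6A libraries, miR-16-5p and miR-15a-5p stood clear of each other and of the rest at 2043 ± 769 and 82.0 ± 21.1 RPM, and the other 6 members lay between 34.3 and 14.5 RPM with every neighbour overlapping.

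**Figure D1:**
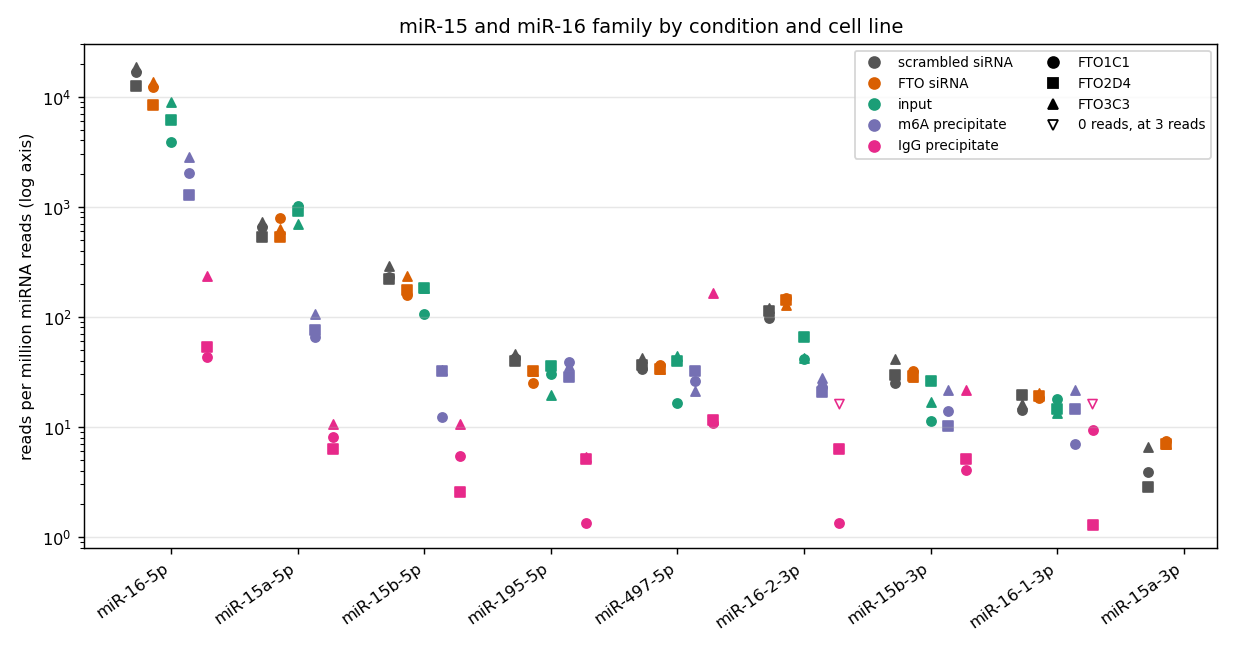
Level of each member (horizontal axis) in RPM (vertical axis, log scale), 1 point per library, with colour for the condition and shape for the cell line. miR-16-5p lies between 8371 and 18653 RPM in the knockdown libraries, above every other member, and the IgG libraries lie lowest for most members; open triangles mark 0 reads drawn at the level of 3 reads.

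The first comparison asked whether loss of FTO changes steady-state levels of the family. Of the 9 members, all of which passed the low-count filter, miR-16-5p fell after FTO siRNA and the other 8 did not pass the test. In a quasi-likelihood fit (edgeR) that blocks on the cell line, 5.48% of the 2374 miRNAs tested were called, 4.97% higher and 0.505% lower. The median log2 fold change of the members was -0.07, beside 0.29 for all miRNAs tested. This median moved to about 0 (-0.00035) with TMM factors, which scale each library to its typical miRNA, and the calls then split into 21 higher and 34 lower in place of 118 and 12 (33 and 61 with DESeq2).

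miR-16-5p stood at 16681, 12561 and 18653 RPM in scr and at 12301, 8371 and 13696 RPM after FTO siRNA in FTO1C1, FTO2D4 and FTO3C3. Every line was lower after FTO siRNA, whereas the groups overlapped because the lines differed among themselves. The within-line ratios were 0.737, 0.666 and 0.734, with a mean of 0.713 ± 0.040 (SD, n = 3). The log2 fold change was -0.49 with a 95% interval from -0.76 to -0.22 (adjusted p = 0.0484 in edgeR). In these bulk libraries fewer cells with the miRNA and less of it per cell cannot be told apart. The log2 fold change was more negative with TMM factors, at -0.78 (adjusted p = 0.0326). The call did not hold without the line block (adjusted p = 0.228), with totals without miR-6080 (0.0575) or with any 1 line left out (0.0630 to 0.210), and over all alternatives the adjusted p ranged from 0.000794 to 0.228.

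miR-195-5p, which differs from miR-16-5p outside the seed, stood at 42.6, 39.8 and 46.2 RPM in scr and at 25.0, 32.3 and 32.0 RPM after FTO siRNA. All 3 libraries after FTO siRNA were below all 3 in scr, a pattern found in 1.94% of the miRNAs tested. Its log2 fold change was -0.53 with an interval from -0.96 to -0.10, and edgeR's adjusted p was 0.121. With TMM factors the adjusted p was 0.0464 and with DESeq2 0.0405, in a range of 0.0405 to 0.446 over the alternatives.

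miR-15b-5p stood at 232, 220 and 288 RPM in scr and at 158, 176 and 236 RPM after FTO siRNA. Each line was lower and the groups overlapped. The log2 fold change was -0.39 with an interval from -0.73 to -0.04 (adjusted p = 0.152 in edgeR). With DESeq2 it was called (adjusted p = 0.0163), in a range of 0.0163 to 0.465 over the alternatives. The direction of miR-16-5p, miR-195-5p and miR-15b-5p was the same with all scalings tried, and a lower level in every line was found in 5.18% of all miRNAs tested.

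The remaining guide arms showed no common direction on library totals. miR-15a-5p stood at 661, 533 and 731 RPM in scr and at 784, 532 and 626 RPM after FTO siRNA. Its log2 fold change was 0.01 with an interval from -0.34 to 0.35, and -0.28 with TMM factors, where the sign turned. miR-497-5p stood at 33.5, 36.5 and 42.2 RPM in scr and at 36.5, 33.5 and 33.8 RPM after FTO siRNA. The log2 fold change of -0.10 had an interval from -0.53 to 0.32, and it was -0.40 with TMM factors. For both, FTO1C1 and FTO3C3 went in opposite directions and the groups overlapped.

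None of the 4 passenger arms was called in edgeR (1, miR-15a-3p, had an unadjusted p under 0.05) or in DESeq2, which gave no adjusted p for miR-15a-3p and miR-16-1-3p. miR-16-2-3p stood at 98.4, 112 and 121 RPM in scr and at 148, 142 and 128 RPM after FTO siRNA. All libraries after FTO siRNA lay above those in scr, as for 26.7% of the miRNAs tested, and the log2 fold change was 0.34 with an interval from -0.06 to 0.74 (adjusted p = 0.255 in edgeR). With TMM factors it was 0.05.

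miR-15a-3p had 14, 7 and 13 reads in scr and 26, 24 and 27 reads after FTO siRNA, which are 3.85, 2.84 and 6.53 RPM against 7.47, 6.93 and 6.96 RPM. These groups did not overlap either. The log2 fold change was 0.74 with an interval from 0.01 to 1.46 (adjusted p = 0.186 in edgeR). At these counts the ratio of FTO3C3, 1.07, had a counting interval from 0.532 to 2.25.

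miR-16-1-3p stood at 14.3, 19.5 and 16.1 RPM in scr and at 18.4, 19.1 and 20.1 RPM after FTO siRNA. It was higher in 2 of 3 lines, with a log2 fold change of 0.22 that turned to -0.08 with TMM factors and with DESeq2. miR-15b-3p stood at 25.0, 29.6 and 41.2 RPM in scr and at 31.9, 29.2 and 28.1 RPM after FTO siRNA, with a log2 fold change of -0.07. Both overlapped between the groups.

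The study listed miRNAs by a change of more than 2-fold and of more than 1.5-fold. Its list at more than 1.5-fold gives the mean and SD over the compared pairs of scrambled and FTO siRNA. The mean ratio below which that list counted a miRNA as lower is not stated in the sources used here. Here the thresholds were a mean ratio above 2 or below 0.5, or above 1.5 or below its reciprocal, in miRNAs of at least 15 RPM. No member met either criterion. The study's own list at more than 1.5-fold does hold miR-195-5p and miR-16-5p as lower. The criteria as taken here are therefore stricter for lower miRNAs than the study's own. Of all 2418 miRNAs, 1.45% and 0.165% met the first and 11.0% and 0.703% the second. The members nearest to the second were miR-195-5p and miR-16-5p, at mean ratios of 0.697 and 0.713, and their lowest ratios in a single line were 0.587 and 0.666. With TMM factors miR-195-5p, miR-16-5p and miR-15b-5p were below the reciprocal of 1.5.

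**Figure D2:**
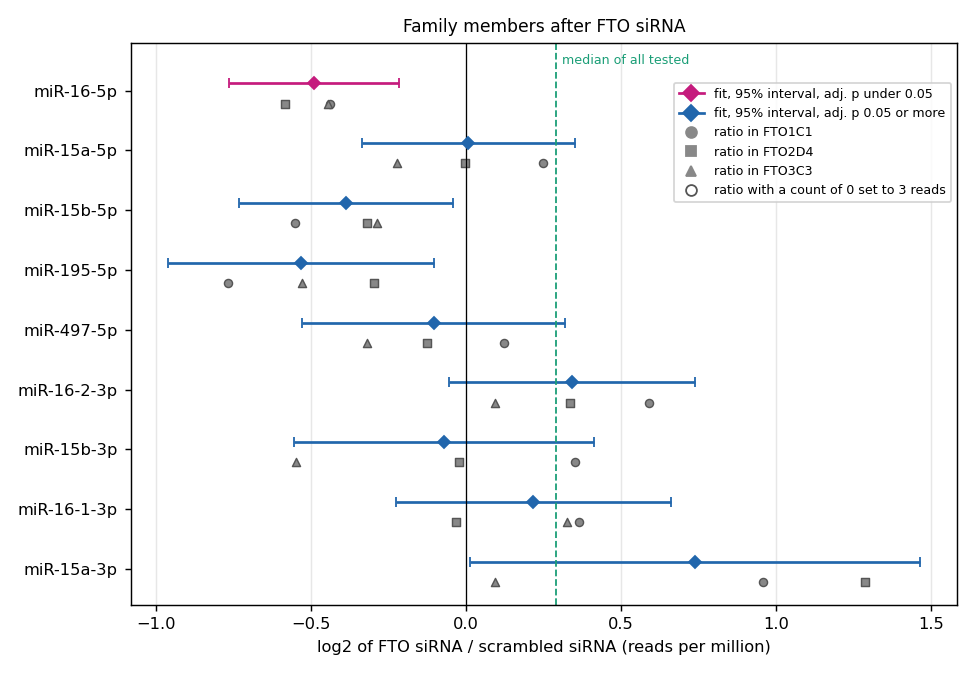
Change of each member after FTO siRNA on the log2 scale (horizontal axis), as the edgeR fit with its 95% interval (diamonds) and as the ratio in each cell line (grey symbols). miR-16-5p alone is called at an adjusted p of 0.0484; the dashed line is the median of all miRNAs tested, 0.29, a shift that is absent with TMM factors.

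The arms of each hairpin were set against each other, since a share of 2 arms does not depend on how the library totals are scaled. The share of the 3p arm was higher after FTO siRNA in all 3 lines for 4 of 6 hairpin pairs and in 2 of 3 lines for the other 2. Among 736 hairpin names with both arms and at least 100 reads, the less abundant arm gained share in all lines in 18.9% and lost share in all lines in 14.9%. These percentages follow the less abundant arm, whereas the 4 of 6 follow the 3p arm. The 3p arm was the less abundant arm in every pair but that of miR-497, where its mean share was 53.2% in scr. The 736 names pair arms by name and so leave out miR-16, whose 3p arms are named for single hairpins. The figures therefore do not cover the same pairs and are not compared directly. With 3 pairs the smallest possible exact two-sided p is 0.25, so no test was made.

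For miR-16-2-3p beside miR-16-5p the share was 0.586, 0.887 and 0.642% in scr and 1.19, 1.67 and 0.929% after FTO siRNA. For miR-15a-3p beside miR-15a-5p the mean share was 0.665 ± 0.192% in scr and 1.11 ± 0.172% after FTO siRNA (SD, n = 3). In both pairs the highest scr library was just below the lowest library after FTO siRNA, at 0.887 against 0.929% for miR-16-2-3p and 0.885 against 0.943% for miR-15a-3p. How often the shares of all hairpins left such a gap was not counted.

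For miR-16-1-3p the mean share was 0.109 ± 0.0398% in scr and 0.174 ± 0.0457% after FTO siRNA, with overlapping groups. It shares its partner, miR-16-5p, with miR-16-2-3p, so these shares are not separate observations of the 5p arm. For miR-195-3p beside miR-195-5p the mean share was 30.0 ± 4.44% and 42.8 ± 2.22%, without overlap (again not counted over all hairpins). For miR-15b-3p it was 11.4 ± 1.44% and 13.9 ± 3.09%, and for miR-497-3p 53.2 ± 4.59% and 58.5 ± 9.83%, both with overlapping groups. The hairpin of miR-497 was thus the one whose 3p arm had about as many reads as its 5p arm.

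**Figure D3:**
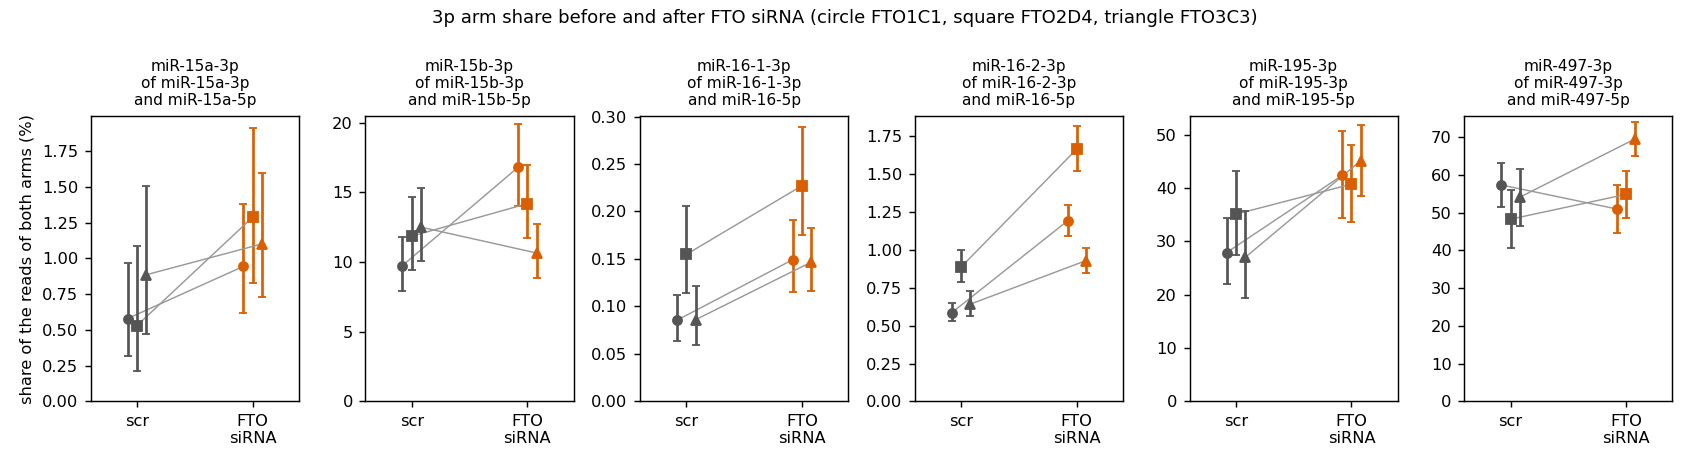
Share of the 3p arm in the reads of both arms (vertical axis, %), with scrambled siRNA (scr) and FTO siRNA on the horizontal axis, 1 symbol per cell line joined by a line, and exact 95% binomial intervals for counting error. The mean share of miR-16-2-3p is 0.705% in scr and 1.26% after FTO siRNA, and the vertical scales differ between panels.

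The second comparison asked which members were recovered by the m6A antibody above the IgG control. Of 8 members, 6 passed the low-count filter, and 4 of these were higher in m6A than in IgG libraries: miR-16-5p, miR-15a-5p, miR-195-5p and miR-16-2-3p. In edgeR's test 39.8% of the 2054 miRNAs tested were called, 38.6% higher and 1.27% lower, so a higher call was common. The IgG libraries held 0 to 6 reads of each of the last 3, which passed the filter only through the m6A libraries, where they were high. All 4 were also called when no filter was applied. The median log2 difference was 0.83 over all miRNAs tested and 0.06 with TMM factors, where calls split into 453 higher and 302 lower in place of 792 and 26 (367 and 249 with DESeq2, and 446 and 257 with totals without miR-6080). The 3 RIP-seq comparisons share their libraries, and their values are given side by side. A larger amount of a miRNA in the precipitated RNA and a larger methylated share of it cannot be told apart.

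The m6A libraries of FTO1C1, FTO2D4 and FTO3C3 gave miR-16-5p 1153, 1749 and 14028 reads, which are 2025, 1283 and 2821 RPM. In the IgG libraries it had 32, 42 and 44 reads, which are 43.2, 53.4 and 236 RPM. The IgG library of FTO3C3, the one with the fewest reads, was the highest of the 3, and every m6A library lay above all of them. The ratios were 46.9, 24.0 and 11.95 with a mean of 27.6 ± 17.8 (SD, n = 3). The log2 difference was 4.56 with a 95% interval from 3.61 to 5.51 (adjusted p = 4.88e-05 in edgeR). It was 4.55 without FTO2D4 (adjusted p = 0.0146) and 3.88 with totals that leave out miR-6080 (adjusted p = 0.000167), in a range of 4.42e-17 to 0.0146 over the alternatives.

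miR-15a-5p stood at 65.0, 75.6 and 105.6 RPM in m6A and at 8.09, 6.36 and 10.7 RPM in IgG libraries, the latter from 6, 5 and 2 reads. The groups did not overlap, a pattern found in 45.8% of the miRNAs tested. The ratio of FTO3C3, 9.84, rests on 2 IgG reads and had a counting interval from 2.71 to 81.5. The log2 difference was 3.28 with an interval from 2.34 to 4.22 (adjusted p = 0.000357 in edgeR), 3.10 without FTO2D4 and 2.56 with totals without miR-6080.

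miR-195-5p stood at 38.6, 28.6 and 35.8 RPM in m6A libraries and had 1, 4 and 1 reads in IgG libraries. All m6A libraries were above all IgG libraries. The ratios were 28.6 in FTO1C1 with a counting interval from 4.63 to 1182, 5.63 in FTO2D4 with one from 2.03 to 21.7, and 6.67 in FTO3C3 with one from 1.18 to 265. The log2 difference was 3.20 with an interval from 1.86 to 4.54 (adjusted p = 0.00280 in edgeR), and it was past the threshold without FTO2D4 (adjusted p = 0.0246) and with totals without miR-6080 (0.0165), in a range of 0.000458 to 0.0246 over the alternatives.

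miR-16-2-3p stood at 22.8, 20.5 and 27.95 RPM in m6A libraries and had 1, 5 and 0 reads in IgG libraries. With 0 reads set to 3, the ratio of FTO3C3 was at least 1.74, and those of FTO1C1 and FTO2D4 were 16.9 and 3.23, with counting intervals of 2.54 to 719 and 1.23 to 10.7. The log2 difference was 2.73 (adjusted p = 0.0122 in edgeR). It was 4.41 without FTO2D4 (adjusted p = 0.0268), and it was not tested with totals without miR-6080, where it did not pass the filter. It was 1.92 with TMM factors (adjusted p = 0.0595) and 2.43 without FTO3C3 (adjusted p = 0.0522), where the call was lost, and the adjusted p ranged from 0.00233 to 0.0788 over the alternatives.

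The other members were not called. miR-497-5p stood at 26.3, 32.3 and 21.1 RPM in m6A and at 10.8, 11.4 and 166 RPM in IgG libraries. Only in FTO3C3, where IgG had 31 reads, was IgG above m6A, and the sign of the log2 difference turned with that line, from -0.28 to 1.39 without it. miR-15b-3p, the passenger of miR-15b, stood at 14.05, 10.3 and 21.7 RPM in m6A and at 4.05, 5.08 and 21.5 RPM in IgG libraries, with a log2 difference of 0.88 and an interval from -0.41 to 2.17.

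miR-15b-5p and miR-16-1-3p did not pass the filter in this comparison. miR-15b-5p had 7, 44 and 163 reads in m6A libraries and 4, 2 and 2 in IgG libraries, with ratios, and their counting intervals, of 2.28 (0.579 to 10.6), 12.7 (3.31 to 108) and 3.06 (0.832 to 25.4). miR-16-1-3p, the member with the AAC or GAC letters, had 4, 20 and 108 reads in m6A libraries and 7, 1 and 0 in IgG libraries. Its ratios were 0.744 (0.160 to 2.93), 11.5 (1.85 to 479) and at least 1.35, so the lines differed in direction. Both passed the filter and were called higher in m6A when FTO1C1 was left out, and miR-15b-5p was also called when no filter was applied. Without FTO1C1 both passed the filter only through the m6A libraries, where they were high. For miR-16-1-3p the line left out was the one with a ratio below 1.

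For enrichment the study's criterion was taken as a mean m6A/IgG ratio of at least 2 and at least 100 RPM in every m6A library. By it miR-16-5p was enriched and no other member was, beside 11.8% of all 2189 miRNAs. The study's own list holds a different number of miRNAs. With 15 RPM in place of 100, 4 members met the criterion, and with totals without miR-6080, 2 did. miR-16-5p was the member with at least 100 RPM in all 3 m6A libraries, as 445 of the 2189 miRNAs had.

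The third comparison set the m6A precipitate against input. All 8 members passed the filter, 4 were lower in m6A than in input and none was higher (4 at an unadjusted p under 0.05, and 8 lower with DESeq2). In edgeR's test 77.3% of the 2174 miRNAs tested were called, 66.8% higher and 10.5% lower. The median log2 difference was 1.65 over all miRNAs tested and -0.68 over the members. With TMM factors the former was 0.10, calls split into 575 higher and 614 lower in place of 1452 and 229 (491 and 595 with DESeq2), and all 8 members were lower.

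miR-15a-5p stood at 1008, 917 and 697 RPM in input and at 65.0, 75.6 and 105.6 RPM in m6A libraries. It was 10.6-fold lower in m6A, with a log2 difference of -3.41 and an interval from -4.30 to -2.52 (adjusted p = 1.25e-07 in edgeR). miR-15b-5p stood at 105.1, 183 and 185 RPM in input and at 12.3, 32.3 and 32.8 RPM in m6A libraries. It was 6.25-fold lower, with a log2 difference of -2.64 (adjusted p = 3.84e-06 in edgeR). The sizes depended on the scaling: with TMM factors the log2 differences were -4.96 for miR-15a-5p and -4.21 for miR-15b-5p, and with totals without miR-6080 they were -2.95 and -2.19. Without FTO2D4 they were -3.31 and -2.73. In both, no m6A library reached any input library, a pattern of 11.2% of the miRNAs tested.

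miR-16-5p stood at 3867, 6199 and 8866 RPM in input and was 3.07-fold lower in m6A libraries, with a log2 difference of -1.62 and an interval from -2.50 to -0.74 (adjusted p = 0.00128 in edgeR). The log2 difference was -3.17 with TMM factors and -1.16 with totals without miR-6080. The within-line ratios to input were 0.524, 0.207 and 0.318. Without FTO2D4 the log2 difference was -1.29 (adjusted p = 0.0294), the highest adjusted p over the alternatives, which began at 2.86e-16. In the same m6A libraries miR-16-5p was thus above IgG and below input.

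miR-16-2-3p stood at 41.2, 65.8 and 42.7 RPM in input and was 2.06-fold lower in m6A libraries, with a log2 difference of -1.04 (adjusted p = 0.0188 in edgeR) that was -2.60 with TMM factors. The call was lost without FTO2D4 (-0.71, adjusted p = 0.193) and with totals without miR-6080 (-0.57, adjusted p = 0.232), and the adjusted p ranged from 5.52e-09 to 0.232.

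miR-195-5p stood at 30.5, 35.6 and 19.3 RPM in input, which overlapped with its m6A libraries, and its log2 difference was 0.31 with an interval from -0.47 to 1.08 on totals and -1.24 with TMM factors, where the sign turned. miR-497-5p, miR-15b-3p and miR-16-1-3p had log2 differences of -0.33, -0.22 and -0.01, all with intervals across 0. The last 3 also changed sign with totals without miR-6080, at 0.15, 0.25 and 0.43.

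The fourth comparison set the IgG control against input, as the background of the precipitation. Of 8 members, 6 were lower in IgG and none was higher (7 at an unadjusted p under 0.05, and 7 lower with DESeq2), beside 58.6% of the 1941 miRNAs tested called, 36.8% higher and 21.8% lower. With TMM factors calls split into 559 higher and 586 lower in place of 714 and 423 (447 and 534 with DESeq2, and 1231 and 273 with totals without miR-6080). IgG libraries held few reads of the family, 62, 72 and 84 in all, which were 0.00836, 0.00915 and 0.0451% of their totals, with FTO3C3 apart from the other lines. Of the 6 members called, miR-15a-5p, miR-15b-5p, miR-16-2-3p, miR-195-5p and miR-16-1-3p had 0 to 7 reads in each IgG library. They passed the filter only through the input libraries, where they were high. All 6 were also called lower when no filter was applied.

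miR-15a-5p was 115-fold lower in IgG than in input (log2 difference -6.84), miR-16-5p 73.1-fold lower (-6.19), miR-15b-5p 28.8-fold lower (-4.85), miR-16-2-3p 16.1-fold lower (-4.01) and miR-195-5p 8.59-fold lower (-3.10). With totals without miR-6080 these log2 differences were smaller, at -5.69, -5.05, -3.71, -2.79 and -1.93 in the same order, and without FTO2D4 they were -6.65, -5.85, -4.19, -5.14 and -3.51, with all 5 called in both. In all 5 no IgG library reached an input library, as for 24.4% of the miRNAs tested. miR-16-1-3p was lower by a log2 difference of -1.91 (adjusted p = 0.0105 in edgeR), which was lost without FTO2D4 (adjusted p = 0.123) and with totals without miR-6080 (adjusted p = 0.278), the latter the highest of a range from 0.00276. miR-497-5p, at 16.3, 39.7 and 44.0 RPM in input, had a log2 difference of -0.04 with an interval from -1.05 to 0.97. It turned to 1.12 with totals without miR-6080, where it was called higher in IgG (adjusted p = 0.0349).

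**Figure D4:**
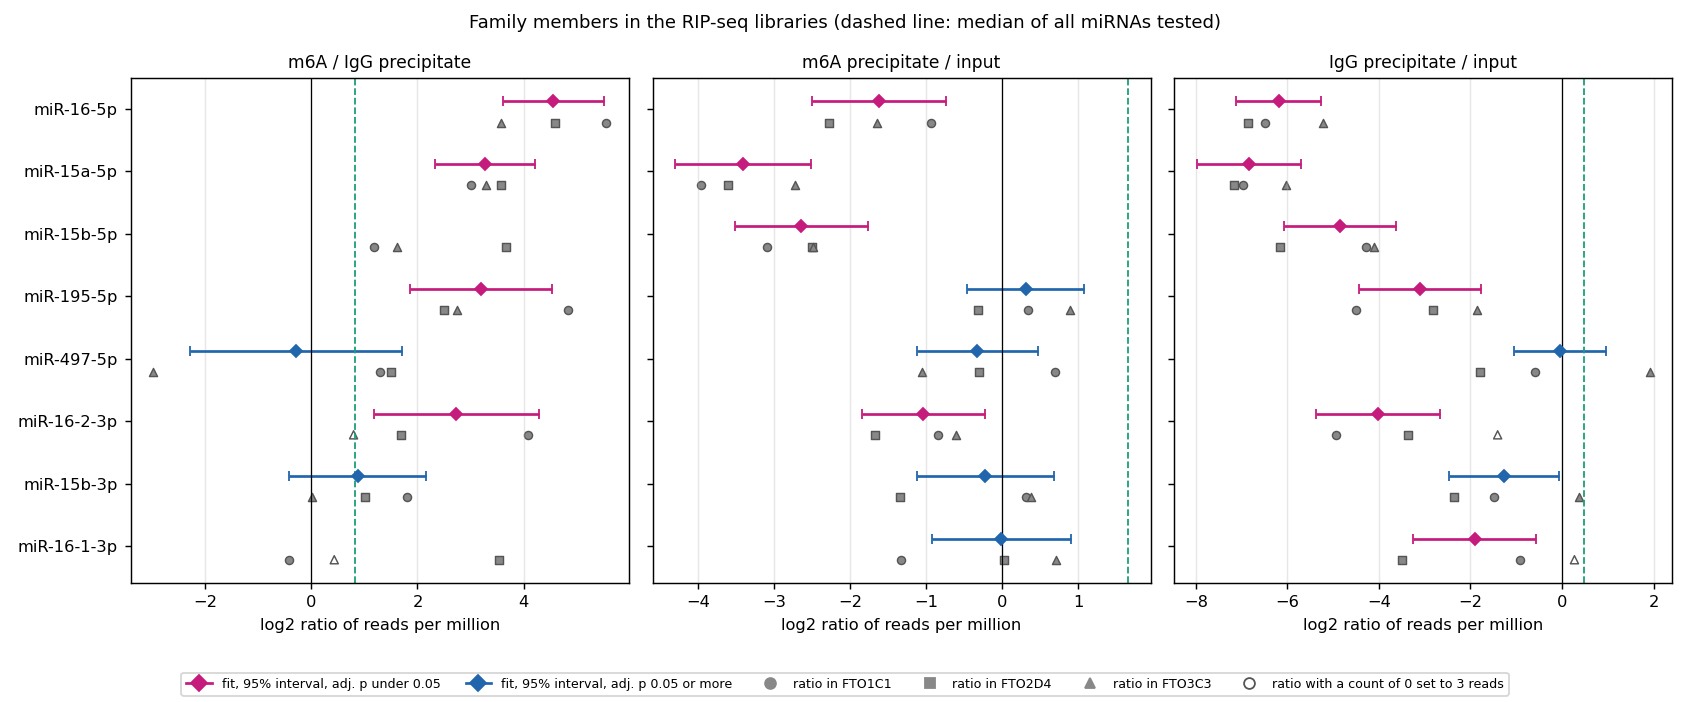
Log2 ratio of the RPM of each member (horizontal axis) for m6A against IgG, m6A against input and IgG against input, as the edgeR fit with its 95% interval (diamonds, absent where the member did not pass the filter) and in each cell line (grey symbols, open where 0 reads were set to 3). miR-16-5p is at 4.56, -1.62 and -6.19 in the 3 panels; the dashed medians of all miRNAs tested depend on the scaling, and miR-195-5p in the middle panel turns from 0.31 to -1.24 with TMM factors.

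Shares of the guide arms in each other's reads do not depend on library totals either. miR-195-5p, separated from miR-16-5p by G10A and U11G, made up 0.247 to 0.316% of the reads of both in scr and 0.203 to 0.385% after FTO siRNA. In input the share was 0.783, 0.571 and 0.218% in FTO1C1, FTO2D4 and FTO3C3, and in m6A libraries it was 1.87, 2.18 and 1.25%. Every m6A library was above every input library, and the m6A intervals for counting error began at 1.08% or higher, while those of input ended at 1.05% or lower. With 3 pairs no exact two-sided p under 0.25 was possible, so no test was made. In IgG libraries the share was between 2.22 and 8.70%, but these rest on 1 to 4 reads of miR-195-5p, with intervals from 0.0562 to 20.8%. The IgG shares were also above every input library, so a share above input was not shown to be particular to the m6A precipitate. Whether reads of miR-16-5p were counted as miR-195-5p was not tested.

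miR-15a-5p went the other way beside miR-16-5p, with 7.29 to 20.7% of the reads of both in input and 3.11 to 5.56% in m6A libraries, without overlap, and with 4.35 to 15.8% in IgG libraries, from 2 to 6 of its reads. In scr it had 3.77 to 4.07% and after FTO siRNA 4.37 to 5.99%, also without overlap. How often shares of other pairs of miRNAs did not overlap between groups was not counted. The 3p arm of miR-15b took 8.28 to 12.5% of the reads of both arms in input and 24.1 to 53.3% in m6A libraries. In IgG libraries it took 42.9 to 66.7%, on 3 or 4 reads of the 3p arm, so a share above input was not particular to the m6A precipitate.

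**Figure D5:**
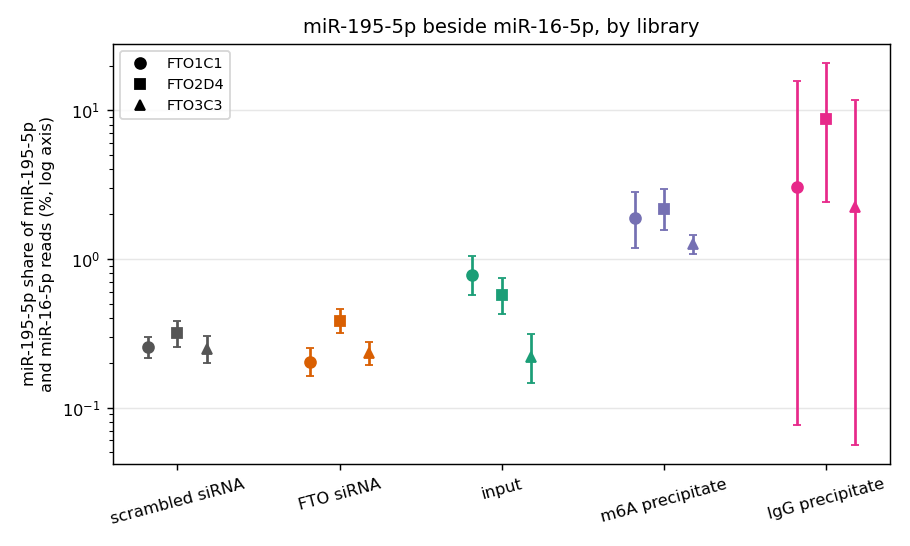
Share of miR-195-5p in the reads of miR-195-5p and miR-16-5p (vertical axis, %, log scale) in each library by condition (horizontal axis), with exact 95% binomial intervals for counting error and 1 symbol per cell line. The m6A libraries lie between 1.25 and 2.18% and the input libraries between 0.218 and 0.783%. The IgG shares, which rest on 1 to 4 reads of miR-195-5p, also lie above the input libraries.

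Related miRNAs were set beside the family: miR-424-5p and miR-6838-5p with the same seed, the arms miR-195-3p, miR-497-3p and miR-424-3p, both arms of miR-503, and miR-103a-3p, miR-107 and miR-646. Beside 4.97% of all miRNAs tested called higher after FTO siRNA in edgeR, 1 of these 10 was called, miR-646, which was higher. It stood at 14.6, 12.6 and 17.6 RPM in scr and 27.3, 34.9 and 25.5 RPM after FTO siRNA (log2 fold change 0.97, adjusted p = 0.0366 in edgeR). miR-424-5p, the most abundant other carrier of the seed, had a log2 fold change of 0.01 with an interval from -0.42 to 0.44.

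Against IgG, 4 of the 9 related miRNAs tested were higher in m6A libraries, beside 38.6% of all miRNAs tested. miR-103a-3p, whose seed is offset from that of the family by 1 base, stood at 3902, 3381 and 3756 RPM in m6A and had 4, 12 and 2 reads in IgG libraries, a log2 difference of 8.47 (adjusted p = 3.66e-06 in edgeR). It was also above input by 1.19, where miR-16-5p was below it. miR-424-5p resembled miR-15b-5p against input, with a log2 difference of -2.77 (adjusted p = 6.01e-06 in edgeR) and 4, 16 and 82 reads in m6A libraries. Of the 10 related miRNAs, 5 were higher and 3 lower in m6A than in input, beside 66.8% and 10.5% of all miRNAs tested. In IgG against input 1 was higher and 4 were lower, beside 36.8% and 21.8% of all miRNAs tested.

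The miRNAs whose level ran most like that of miR-16-5p were sought among 950 with at least 15 RPM on average in scr and input, by the lower of the Pearson correlations of log2(RPM + 1) over the 6 knockdown and over the 9 RIP-seq libraries. They were miR-125b-2-3p (0.936), miR-128-3p (0.931), miR-378a-3p (0.907), miR-103a-3p (0.895) and miR-151a-3p (0.868). The libraries share their cell lines and totals, so these are descriptions. Of the family, miR-15b-5p stood at place 16, miR-195-5p at 36 and miR-15a-5p at 39. miR-16-2-3p stood at place 603, with a correlation of -0.62 over the knockdown and 0.84 over the RIP-seq libraries, and miR-16-1-3p at place 630.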

How the data were processed

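The authors deposited whole-number read counts per mature miRNA, not normalized, for 6 knockdown and 9 RIP-seq libraries. According to the study's methods, TruSeq small RNA reads were trimmed with cutadapt (4 bp overlap, 20% error), kept at 16 to 28 bp and matched to mature miRNAs of miRBase release 20. No genome alignment was made. RPM were computed from the counts by dividing by each library's miRNA total, as in the study. edgeR's glmQLFit and glmQLFTest were run on the counts, with filterByExpr (minimum count 10), library size equal to the miRNA total and the cell line as a term, and Benjamini-Hochberg adjustment was made over all miRNAs tested, with a threshold of 0.05. Intervals of shares are exact binomial and those of ratios exact conditional intervals at 95%. Without molecular identifiers they cover counting error only. Ratios against 0 IgG reads used 3 reads. The edgeR test was also run on simulated counts, which held no differences between lines, and nothing is concluded from them.

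The pairing comes from the cell line named in each label. The deviations from the group means of 2 paired libraries had correlations of 0.189, 0.121 and 0.160 in the knockdown, 0.0117, 0.0313 and 0.0370 for m6A with IgG, -0.0284, -0.0667 and -0.0711 for m6A with input, and 0.0661, -0.0273 and 0.0406 for IgG with input. Chi-square per degree of freedom between libraries of a group was 7.79 to 166, above sampling noise. Sequences and coordinates were taken from RefSeq tables of GRCh38.p14. Named were the 9 members, miRNAs of the same seed or hairpin, a list of similar miRNAs and the 5 miRNAs most like miR-16-5p. The members and lists were chosen with earlier results of these data known. Alternatives were TMM factors, DESeq2, no filter and a minimum count of 50, no line block, totals without miR-6080, and each line left out. The main tools were edgeR 4.0.16 and DESeq2 1.42.0 in R 4.3.3, and scipy 1.17.1 in Python 3.11.15.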

Additional observations from a re-analysis of the deposited data

How the results depend on the processing

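Counts of members called: after FTO siRNA 1 was called, beside 2 with TMM factors, 3 with DESeq2, 0 with totals without miR-6080 and 0 with any line left out. For m6A against IgG 4 of 6 tested were called, beside the 1 tested at a minimum count of 50, 5 of 8 with no filter and 3 to 6 with a line left out, the 6 without FTO1C1, and for m6A against input 4, beside 8 with TMM factors and 8 with DESeq2. For IgG against input 6 of 8 tested were called, beside all 3 tested at a minimum count of 50. By the ratio criteria as taken here, 3 members changed after FTO siRNA with TMM factors in place of 0, and 0 to 1 with a line left out, the 1 without FTO2D4. For enrichment 1 member met the criterion, beside 2 with totals without miR-6080 and 4 with a cutoff of 15 RPM.

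The line block changed the knockdown calls: without it 0 members in place of 1 and 41 miRNAs in place of 130 were called by edgeR, with miR-16-5p at a log2 fold change of -0.48 (549 of all miRNAs had an unadjusted p under 0.05). In IgG against input miR-15b-3p was called without the block (-1.37, adjusted p = 0.0372, in a range from 0.00601 to 0.853) and 7 members in place of 6. The block changed no other call of a member.

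Signs that turned were those of members that were not called on library totals with the block and all lines. After FTO siRNA miR-15a-5p was -0.28 with TMM factors, -0.29 with DESeq2 and -0.11 to 0.12 with a line left out, negative without FTO1C1. miR-16-1-3p was -0.079 with TMM factors and with DESeq2. With a line left out miR-15b-3p was -0.29 to 0.17 and miR-497-5p -0.22 to 0.0027, positive without FTO3C3. For m6A against IgG miR-497-5p was -1.34 to 1.39 with a line left out, positive without FTO3C3. For m6A against input miR-195-5p was -1.24 with TMM factors, -1.27 with DESeq2 and -0.010 to 0.63 with a line left out, negative without FTO3C3. There miR-16-1-3p was 0.096 without the block, 0.43 with totals without miR-6080 and -0.48 to 0.39 with a line left out, positive without FTO1C1. With totals without miR-6080 miR-15b-3p was 0.25 and miR-497-5p 0.15, and with a line left out -0.67 to 0.35 (positive without FTO2D4) and -0.69 to 0.10 (positive without FTO3C3). For IgG against input miR-497-5p was 0.51 without the block, 1.12 with totals without miR-6080 and -1.24 to 0.86 with a line left out, 0.19 without FTO1C1. The cause was not tested.

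Over all miRNAs, the 130 calls after FTO siRNA became 55 with TMM factors, 201 without FTO3C3 and 0 without FTO1C1 in edgeR (327 at an unadjusted p under 0.05). The 818 calls of m6A against IgG became 425 at a minimum count of 50 and 470 without FTO2D4, the 1681 of m6A against input 1086 with DESeq2 and 1068 at a minimum count of 50, and the 1137 of IgG against input 581 at a minimum count of 50, where fewer miRNAs were tested. IgG libraries held 0 to 44 reads of each member, which limits every ratio against them.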
